A study of Homo sapiens with 6 samples.

Results

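The 38 genes described here encode the enzymes that make cholesterol and fatty acids and the proteins that set their transcription, out of 62703 genes in the deposited count table. They were taken by symbol from a fixed list, and all 38 were found and had enough counts to test. They are ordered in 6 branches: control of the sterol regulatory element-binding proteins (SREBPs, 5 genes), the mevalonate arm from acetyl-CoA to farnesyl diphosphate (7), the steps from squalene to cholesterol (11), fatty acid synthesis from acetate or citrate to palmitate (5), elongation and desaturation (7) and acyl-CoA synthetases (3). RNA was sequenced from A549, an established human lung adenocarcinoma cell line, grown in a hydrogel named AlgLung or in one named S-AlgLung, 3 libraries per hydrogel. What the S stands for is not spelled out in the labels, although the series title names sulfation of the matrix around cells. Neither hydrogel carried a further treatment in the labels. Cells of both groups were kept in medium with 10% fetal bovine serum, a source of cholesterol and fatty acids, and the labels do not say whether the hydrogel cultures had the same medium. Separate cultures are not stated either, so p-values reflect library-to-library spread alone, part of which may be technical.

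SREBPs are made as membrane proteins of the endoplasmic reticulum. SCAP escorts them to the Golgi for cleavage when sterols are low, and the INSIG proteins hold SCAP back when sterols are high. The released SREBP-2 (gene SREBF2) acts mainly on sterol genes and SREBP-1 (gene SREBF1) mainly on fatty acid genes, together with the factors NF-Y and Sp1. In alveolar epithelium the same enzymes supply lipid for surfactant, and in tumour cells they supply membrane for growth. Many of these genes therefore tend to move together when sterol supply changes.

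Some promoter sequences of the listed genes are shown first, to make the elements read by SREBP and NF-Y visible. RefSeq promoter entries (GRCh38.p14) existed for 34 of the 38 genes, and the 250 bases before each entry's transcript start were searched on both strands. That start is RefSeq's and need not be the outermost start of the gene: the windows of ELOVL5 and SREBF2 shown here reach into the gene spans of the annotation. The first transcribed bases of 30 of the 34 entries, including the 4 shown, were found within a GENCODE transcript of the same gene. The SREBP element was searched as TCACNCCAC, and it was in the window of 1 of the 34 genes, SREBF2 itself, against 0.883% of all 35116 promoters. The NF-Y motif CCAAT was in 21 of the 34 (61.8%), against 32% of all promoters, and the Sp1 motif GGGCGG in 30 of the 34 (88.2%), against 42.6%. These are matches of letters and not measured sites, and the search for TCACNCCAC does not cover other forms of the element. The 35116 promoters were not limited to expressed genes or matched for base composition. The shares therefore do not show that a motif is particular to these genes. The 4 windows below belong to SREBF2 (chr22:41832855-41833104, plus strand), because it alone held the SREBP element, to the desaturases SCD (chr10:100346983-100347232, plus strand) and SCD5 (chr4:82798797-82799046, minus strand), and to the elongase ELOVL5 (chr6:53348951-53349200, minus strand). SCD5 and ELOVL5 had the smallest p-values of the 38 genes, and SCD is the abundant relative of SCD5. Each is written 5′ to 3′ in the direction of transcription, and capitals mark TCACNCCAC and CCAAT on either strand (ATTGG is CCAAT on the other strand). In SREBF2 the SREBP element began 133 bases and the NF-Y match 106 bases before the start. SCD had NF-Y matches at 229 and 186 bases, SCD5 at 135, and ELOVL5 at 122 and 68.
SREBF2: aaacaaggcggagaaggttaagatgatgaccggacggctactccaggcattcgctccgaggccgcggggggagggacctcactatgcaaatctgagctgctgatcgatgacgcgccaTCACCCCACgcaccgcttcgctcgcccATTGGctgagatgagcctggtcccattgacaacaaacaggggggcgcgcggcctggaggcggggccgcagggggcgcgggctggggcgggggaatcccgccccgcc
SCD: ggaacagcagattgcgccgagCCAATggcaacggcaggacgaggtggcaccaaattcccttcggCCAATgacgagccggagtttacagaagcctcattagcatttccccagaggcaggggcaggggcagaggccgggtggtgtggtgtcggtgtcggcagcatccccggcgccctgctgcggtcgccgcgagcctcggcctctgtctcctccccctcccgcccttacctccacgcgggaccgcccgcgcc
SCD5: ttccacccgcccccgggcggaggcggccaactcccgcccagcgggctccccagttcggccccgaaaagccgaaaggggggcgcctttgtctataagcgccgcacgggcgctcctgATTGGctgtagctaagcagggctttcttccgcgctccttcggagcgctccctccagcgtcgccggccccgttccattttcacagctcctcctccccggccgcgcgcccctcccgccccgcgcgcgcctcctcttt
ELOVL5: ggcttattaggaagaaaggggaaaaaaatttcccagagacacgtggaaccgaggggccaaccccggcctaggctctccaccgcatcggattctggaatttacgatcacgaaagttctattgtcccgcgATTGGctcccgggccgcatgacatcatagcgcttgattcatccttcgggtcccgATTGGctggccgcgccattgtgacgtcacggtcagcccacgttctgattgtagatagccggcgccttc

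Total counts per library were 22978408 to 26495444, and the 38 genes together took 0.602% to 0.681% of them. The A549 and epithelial markers KRT8, KRT18, AKR1B10, ALDH1A1, NQO1 and CDH1 were present in every library, with EPCAM low at 1.53 to 5.40 CPM (counts scaled to library size, with TMM factors). Of 5 adipocyte markers, ADIPOQ, FABP4 and LEP had 0 counts in all 6 libraries. Summed levels were 5.94 to 7.70 CPM in AlgLung and 7.21 to 12.2 in S-AlgLung for the adipocyte list, 7.62 to 8.05 and 7.22 to 9.27 for 6 fibroblast markers, and 2.34 to 3.68 and 3.04 to 3.77 for 4 endothelial markers. The 5 leukocyte markers summed to 30.9 to 38.1 and 44.3 to 71.4 CPM, nearly all of it CD14, which was called higher in S-AlgLung (called meaning an adjusted p under 0.05 in edgeR), while PTPRC and CD3E stayed at or under 0.211 CPM in each library. S-AlgLung replicate 3 was the highest library on the second principal component of all tested genes, at 49.2 against -20.2 and -33.4 for the other S-AlgLung libraries. The AlgLung libraries were spread on it too, at 21.8, -19.2 and 1.75 for replicates 1, 2 and 3. The share of MALAT1 and NEAT1, RNAs kept in the nucleus, was 0.0264% in S-AlgLung replicate 3, against at most 0.00736% elsewhere. Of 7 proliferation markers, 6 were called lower in S-AlgLung, with summed levels of 152 to 171 CPM in AlgLung and 56.7 to 75.8 CPM in S-AlgLung. The part of these features in the results below was not tested, except where a value without that library is given.

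The design sets the S-AlgLung hydrogel against AlgLung to compare mRNA levels, and none of the 38 lipid synthesis genes was called. Of all 18544 genes tested, 5.14% were called at an adjusted p under 0.05 (edgeR quasi-likelihood test, Benjamini-Hochberg over all tested genes), 584 higher (3.15%) and 369 lower (1.99%), or 333 and 335 with scaling by total counts. Of the 38 genes 0 were called by edgeR, 0 by DESeq2 and 0 by limma-voom. At an unadjusted p under 0.05 there were 2 (5.26%), SCD5 and ELOVL5, against 14.9% of all tested genes. In 5 of the 38 genes (13.2%) the hydrogels did not overlap, against 18.4% overall. ACACA and ELOVL5 were the 2 that lay higher in S-AlgLung, against 10.4% of all tested genes, and ACAT2, LSS and SCD5 the 3 that lay lower, against 8.05%. The median log2 fold change (S-AlgLung minus AlgLung) was -0.05, against 0.03 over all tested genes, and 27 of the 38 values were below 0 (71.1%), against 46.6% of all tested genes. Without S-AlgLung replicate 3, 22 of the 38 were below 0 and the median was -0.08. The matching values over all genes were not computed for that fit. As bulk RNA, these values cannot tell a change in the number of cells that express a gene from a change in RNA per cell.

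The intervals bounded most of these differences to less than a 2-fold change, but smaller changes could be missed. Standard errors of the log2 fold change ran from 0.21 to 0.28 over the 38 genes, which had 1017 to 174832 counts over the 6 libraries. For 36 of the 38 the 95% interval lay inside a 2-fold change in either direction, against 70.8% of all tested genes. The other 2 were SCD5, whose interval reached -1.22, and ELOVL5, whose interval reached 1.01. The interval of INSIG1, for example, ran from -0.38 to 0.51. The share of 70.8% covers genes with fewer counts as well, and fewer counts widen intervals. Of the 18544 tested genes, 12930 had a mean of at least 4 CPM. A share over genes of like counts was not computed. In simulated counts of the same design, with changed genes drawn from all tested genes, 6.2% of 1.5-fold and 48.3% of 2-fold changes were called.

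**Figure D1:**
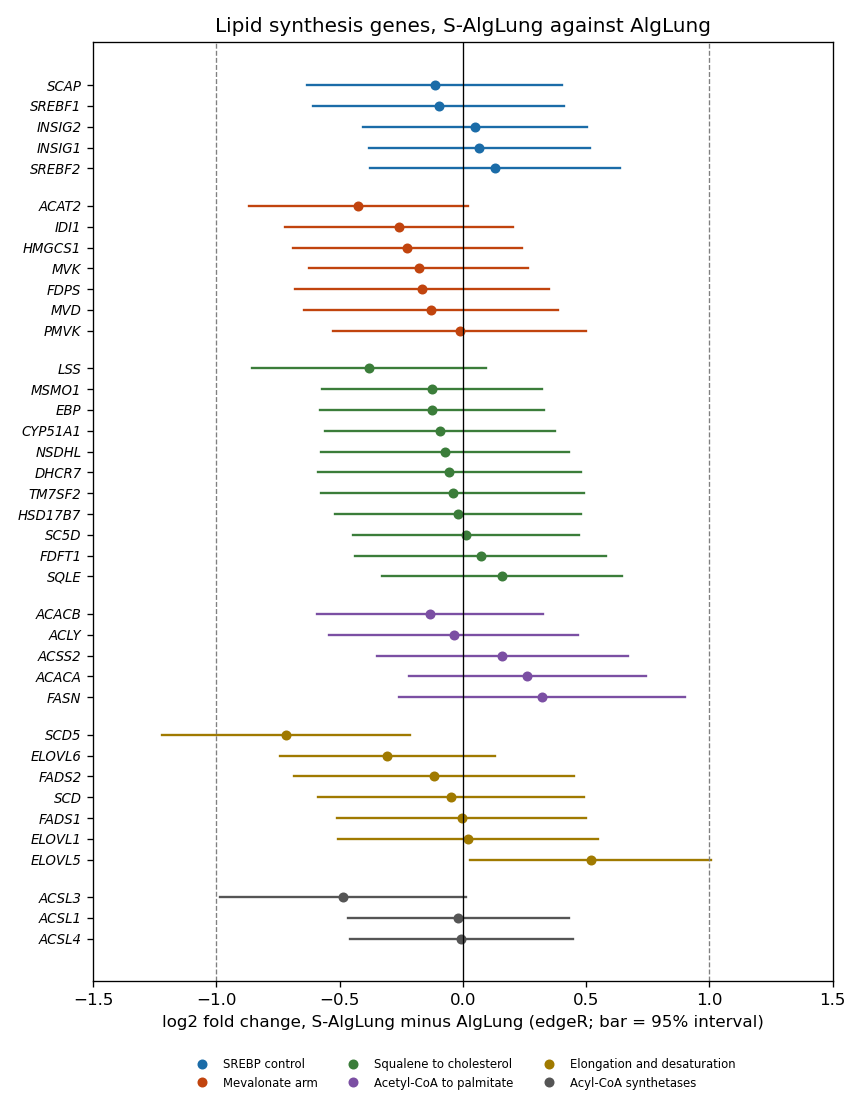
Log2 fold change of each of the 38 genes (x axis, S-AlgLung minus AlgLung, from edgeR over 3 libraries each) by gene (y axis), coloured by branch, with bars for the 95% interval and dashed lines at a 2-fold change. The 7 genes of the mevalonate arm lie below 0, and the intervals of SCD5 and ELOVL5 pass a dashed line.

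None of the 5 SREBP control genes was called, and their log2 fold changes ran from -0.12 to 0.13. SREBF1 was at 266, 265 and 227 CPM in AlgLung and 288, 233 and 187 CPM in S-AlgLung (edgeR log2 fold change -0.10, SE 0.25, adjusted p = 0.9272). The S-AlgLung values spanned those of AlgLung on both sides. Of the exons of SREBF1, 556 bases lie opposite RAI1, a gene with 0.715 times its counts, and strand use in the counting is not given. SREBF2 was at 253, 304 and 284 CPM in AlgLung and 341, 332 and 247 CPM in S-AlgLung (log2 fold change 0.13, SE 0.25, edgeR adjusted p = 0.8932). Here S-AlgLung replicates 1 and 2 were above every AlgLung library and replicate 3 was below every one. INSIG1, itself a target of SREBPs and for that reason a common readout of their activity, was at 48.4, 39.9 and 45.6 CPM in AlgLung and 48.1, 37.2 and 54.9 CPM in S-AlgLung (log2 fold change 0.07, 95% interval -0.38 to 0.51). The groups overlapped fully. INSIG2, whose transcription depends less on SREBPs, was at 0.05 and SCAP at -0.12 on the log2 scale. Per kilobase of exon, the AlgLung means were 37.1 CPM for SREBF2, 30.7 for SREBF1, 20.6 for SCAP, 12.2 for INSIG1 and 4.04 for INSIG2, so INSIG1 was the more abundant INSIG gene in these cells.

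In the mevalonate arm all 7 log2 fold changes were below 0, with a median of -0.18, and none was called. HMGCS1, the synthase that makes HMG-CoA, was at 91.6, 64.3 and 86.0 CPM in AlgLung and 65.9, 75.5 and 65.5 CPM in S-AlgLung (edgeR log2 fold change -0.23, SE 0.23, adjusted p = 0.7446). AlgLung replicate 2 was the lowest of the 6 libraries, so the groups overlapped. Of the exons of HMGCS1, 2497 bases lie opposite a gene without a symbol, which had 0.242 times its counts. ACAT2, the cytosolic thiolase that opens the pathway, had the lowest value of the arm, with 29.4, 30.3 and 36.7 CPM in AlgLung and 18.7, 27.6 and 25.6 CPM in S-AlgLung (log2 fold change -0.42, SE 0.22, edgeR adjusted p = 0.3654). Its groups did not overlap, but 454 bases of its exons lie opposite TCP1, a gene with 3.24 times as many counts, and whether counting used strand is not known from the sources used here. IDI1, the isomerase that forms dimethylallyl diphosphate, was at -0.26. FDPS, which makes farnesyl diphosphate, and MVK, the mevalonate kinase, were at -0.17 and -0.18. FDPS has 693 exonic bases opposite RUSC1-AS1, which had 0.663 times its counts. MVK has 225 opposite MMAB, which had 1.10 times its counts. MVD, the decarboxylase, was at -0.13 and PMVK, the phosphomevalonate kinase, at -0.01. In S-AlgLung replicate 3 the level of PMVK was 0.492 and that of MVD 0.501 of the level in the other S-AlgLung libraries, and without that library PMVK was at 0.22, MVD at 0.10 and IDI1 at -0.50. PMVK was also above 0 without AlgLung replicate 2 (0.069), so the shared sign of the arm rested on single libraries for PMVK and MVD.

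The steps from squalene to cholesterol ranged from -0.38 (LSS) to 0.16 (SQLE), with 8 of 11 below 0 and a median of -0.05. SQLE, the squalene epoxidase and a rate-limiting step, was at 134, 109 and 139.7 CPM in AlgLung and 129, 127 and 172 CPM in S-AlgLung (edgeR log2 fold change 0.16, SE 0.24, adjusted p = 0.8551). The value above the AlgLung range was S-AlgLung replicate 3. LSS, lanosterol synthase, was at 83.0, 105 and 101 CPM in AlgLung and 82.1, 81.2 and 59.1 CPM in S-AlgLung (SE 0.23, edgeR adjusted p = 0.491). Its groups did not overlap, by a gap of less than 1 CPM between AlgLung replicate 1 and S-AlgLung replicate 1. FDFT1, the squalene synthase, was at 0.07 and the lanosterol demethylase CYP51A1 at -0.09. MSMO1 and NSDHL, which remove the methyl groups at carbon 4 together with HSD17B7, were at -0.13, -0.07 and -0.02 in that order. EBP, the sterol isomerase, was at -0.12, SC5D, the sterol desaturase, at 0.01, DHCR7, the last reductase, at -0.05, and TM7SF2, a sterol reductase, at -0.04. CYP51A1 shares 2827 and 2844 exonic bases with 2 genes without a symbol on its own strand, which had 1.01 and 0.922 times its counts, and EBP shares 644 with another, which had 0.867 times its counts. The setting for reads that lie in several genes is not given in the sources, and shared reads were not separated. The levels of CYP51A1 and EBP may therefore include reads of the genes they overlap and are uncertain.

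For the enzymes from acetyl units to palmitate, 3 of 5 values were above 0 and the median was 0.16. FASN, the fatty acid synthase, showed the largest spread of the branch, at 454, 493 and 396 CPM in AlgLung and 692, 671 and 313 CPM in S-AlgLung (edgeR log2 fold change 0.32, SE 0.28, adjusted p = 0.6992). S-AlgLung replicates 1 and 2 were above all AlgLung libraries and replicate 3 was below all of them. Without replicate 3 the log2 fold change was 0.58 (edgeR adjusted p = 0.1163), within a range of 0.1163 to 0.9999 over the alternatives tried. ACACA, the acetyl-CoA carboxylase of the cytosol, was at 158, 144 and 159.8 CPM in AlgLung and 177, 203 and 173 CPM in S-AlgLung (log2 fold change 0.26, SE 0.23, edgeR adjusted p = 0.7043). Its groups did not overlap. The mitochondrial form ACACB was at -0.13, and its highest library was S-AlgLung replicate 3. ACLY, which splits citrate into acetyl-CoA, was at -0.04 and ACSS2, which makes acetyl-CoA from acetate, at 0.16. Per kilobase ACLY was the most abundant of the branch in AlgLung, at 77.2 CPM, followed by FASN at 48.0, ACSS2 at 16.5, ACACA at 11.8 and ACACB at 1.84.

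Elongation and desaturation held the 2 genes with the smallest p-values, and they pointed in opposite directions. SCD5, a stearoyl-CoA desaturase that rodents lack (chromosome 4, 82629539 to 82798796, GRCh38), was at 8.66, 7.01 and 10.1 CPM in AlgLung and 4.49, 4.98 and 6.18 CPM in S-AlgLung. Every S-AlgLung library was below every AlgLung library, with a mean of 5.22 ± 0.871 against 8.59 ± 1.54 CPM (SD, n = 3). The edgeR log2 fold change was -0.72 (SE 0.25, 95% interval -1.22 to -0.21, adjusted p = 0.1017), which missed the threshold. Without S-AlgLung replicate 3 it was called, at -0.89 (edgeR adjusted p = 0.007373), and over all alternatives the adjusted p ran from 0.007373 to 0.4634. SCD, the main stearoyl-CoA desaturase, was the most abundant of the 38 genes per kilobase (230.1 CPM in AlgLung, against 2.03 for SCD5). It was at 1269, 1131 and 1222 CPM in AlgLung and 1099.6, 1077 and 1326 CPM in S-AlgLung (log2 fold change -0.05, 95% interval -0.59 to 0.49). Its groups overlapped, and the difference between SCD and SCD5 in their response was not tested.

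ELOVL5, which lengthens polyunsaturated fatty acids, was at 87.9, 74.1 and 87.3 CPM in AlgLung and 117, 91.0 and 148 CPM in S-AlgLung (chromosome 6, 53267398 to 53349179). All S-AlgLung libraries were above all AlgLung libraries, by a narrow gap for replicate 2. The edgeR log2 fold change was 0.52 (SE 0.24, adjusted p = 0.2946). Leaving out its highest library, S-AlgLung replicate 3, gave 0.29 (edgeR adjusted p = 0.4471, within 0.05931 to 0.7441 over the alternatives). ELOVL6, which lengthens palmitate to stearate, was at -0.31, and ELOVL1, which makes very long chains, at 0.02. FADS1 and FADS2, the desaturases that act with ELOVL5 on polyunsaturated fatty acids, were not called. FADS1 ranged from 415 to 463 CPM over the 6 libraries (95% interval -0.51 to 0.50). FADS2 ranged from 619.6 to 1109 CPM (log2 fold change -0.12, 95% interval -0.69 to 0.45), with S-AlgLung replicate 3 as the lowest library. The neighbours FADS1 and FADS2 share 490 exonic bases on opposite strands, and reads there can be told apart only if the counting used strand. Of the acyl-CoA synthetases, which activate fatty acids for use, ACSL3 had the lowest value: 207, 130.0 and 163 CPM in AlgLung and 132, 116 and 109 CPM in S-AlgLung (edgeR log2 fold change -0.49, SE 0.24, adjusted p = 0.3504). Its groups overlapped at AlgLung replicate 2. ACSL1 and ACSL4 were at -0.02 and -0.01.

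**Figure D2:**
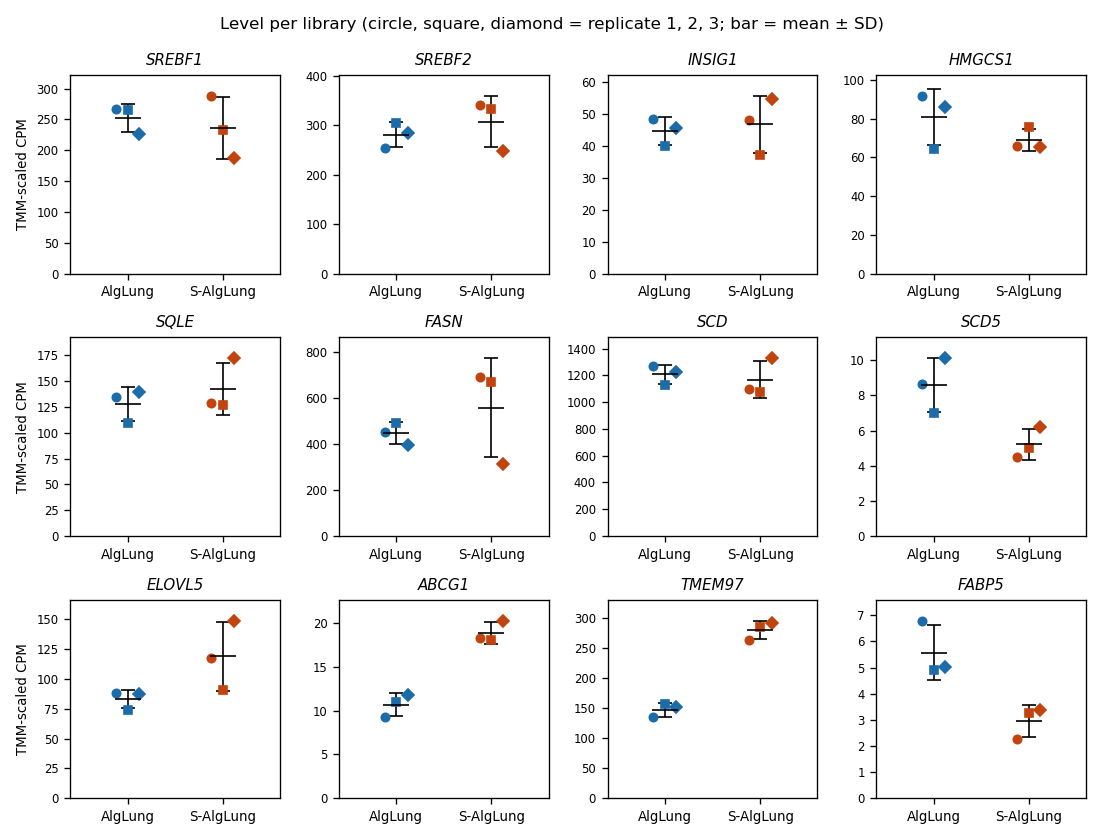
TMM-scaled CPM (y axis, from 0) in each library of the 2 hydrogels (x axis) for 9 of the 38 genes and 3 related genes, with circles, squares and diamonds for replicates 1, 2 and 3 and a bar for the mean ± SD (n = 3). SREBF1, SREBF2, INSIG1, HMGCS1, SQLE, FASN and SCD overlap between hydrogels, while SCD5, ELOVL5, ABCG1, TMEM97 and FABP5 do not.

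Spread among the libraries of a hydrogel is given here beside the difference between the hydrogels, as a description. The median range among the 3 libraries was 0.37 (log2 CPM) in AlgLung and 0.54 in S-AlgLung, against a median difference of 0.12 between the hydrogel means in either direction. The difference of means was larger than the wider of its ranges in 2 of the 38 genes. A range of 3 libraries tends to exceed a difference of means even where nothing differs. These values therefore do not set the 38 genes apart, and the same count over all tested genes was not made. S-AlgLung replicate 3 was the lowest S-AlgLung library in 20 of the 38 genes (52.6%, against 34.6% of all tested genes) and the highest in 14 (36.8%, against 43.8%). In 8 genes it was more than 1.5-fold below the mean of the other S-AlgLung libraries: FASN (0.459 of that mean), TM7SF2 (0.468), PMVK (0.492), MVD (0.501), DHCR7 (0.566), FADS2 (0.592), SCAP (0.623) and ACSS2 (0.639). They come from 5 of the 6 branches. It was more than 1.5-fold above that mean in 2, ACACB (1.62) and HSD17B7 (1.51). The shares of all tested genes beyond 1.5-fold were not computed, so whether the counts of 8 and 2 are unusual is not known.

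**Figure D3:**
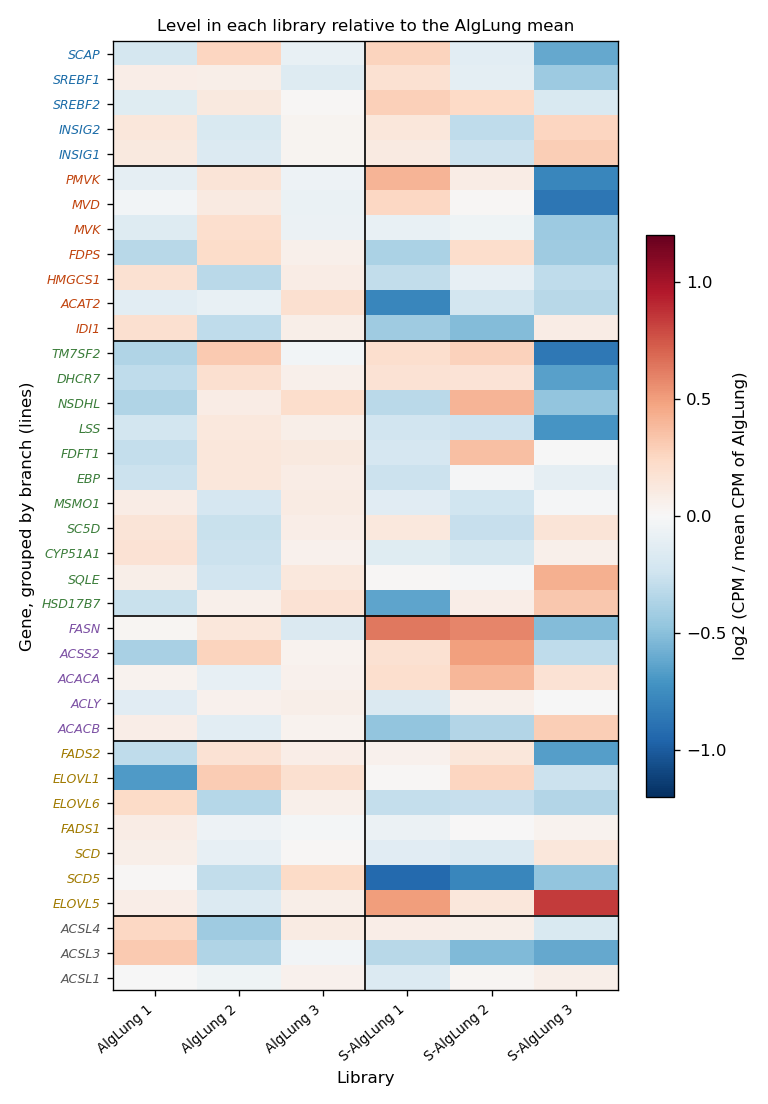
Level of each of the 38 genes (rows, grouped by branch) in each of the 6 libraries (columns), as log2 of CPM over the mean of the AlgLung libraries (colour). In the column of S-AlgLung replicate 3, PMVK, MVD and TM7SF2 are deep blue and unlike the neighbouring columns, whereas SCD5 is blue and ELOVL5 red in all 3 S-AlgLung columns.

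The position of S-AlgLung replicate 3 moved with the base composition of the transcripts. Across the 38 genes, Spearman's rho between the GC content of the longest transcript and the log2 deviation of that library from the other S-AlgLung libraries was -0.71, a description across genes that share these libraries. Over the 17835 tested genes with a GC value it was -0.40. The 8 genes that lay more than 1.5-fold below had a median GC content of 60.9%, with 54.6% as the lowest, against 47.8% in the other 30. FASN had 65.3% and TM7SF2 64.2%, while INSIG2 and ACSL4 had 35.4% and 37.4%. When the trend with GC content was removed from each library, a step chosen after seeing the data, the median SE of the 38 genes went from 0.24 to 0.16. Then 1 of the 38 was called, SCD5 at -0.80 (edgeR adjusted p = 0.0288), against 5.37% of the 17835 genes tested in that fit. The values of ELOVL5 and LSS in that fit were 0.59 (edgeR adjusted p = 0.05931) and -0.48 (0.08832).

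**Figure D4:**
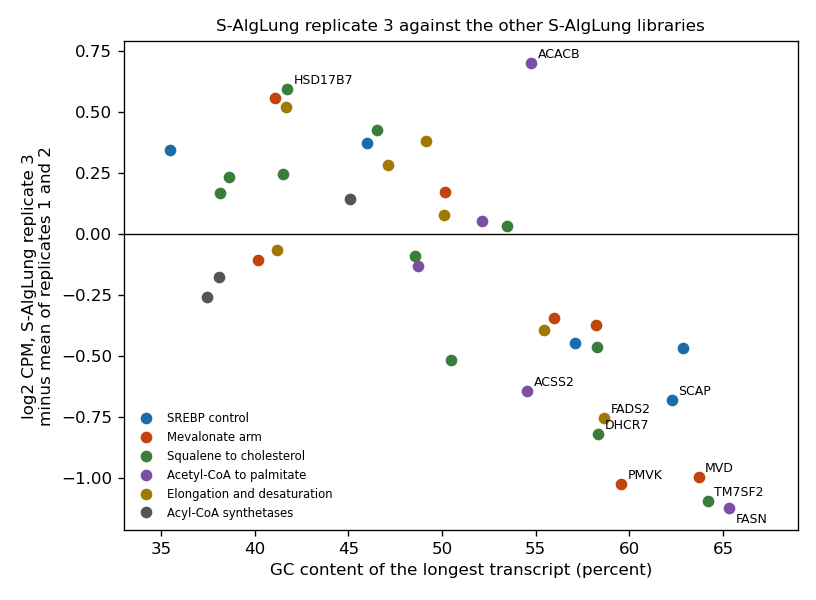
Log2 CPM of S-AlgLung replicate 3 minus the mean of S-AlgLung replicates 1 and 2 (y axis) against GC content of the longest transcript in percent (x axis), with 1 point for each of the 38 genes, coloured by branch. Genes more than 1.5-fold off the other libraries are named, and the 8 of them that lie below have a GC content of at least 54.6%.

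Around these enzymes, 83 further genes of lipid handling were listed in 8 groups, of which 79 had enough counts to test, and 3 of the 79 (3.8%) were called, against 5.14% of all tested genes. The 4 without enough counts were THRSP, ELOVL3, ACSL6 and CD36. TMEM97, a sterol-responsive membrane protein of the endoplasmic reticulum known as the sigma-2 receptor (chromosome 17, 28319200 to 28328685), was at 134, 157 and 151 CPM in AlgLung and 263, 285 and 292 CPM in S-AlgLung. It rose 1.90-fold (edgeR log2 fold change 0.92, SE 0.24, adjusted p = 0.0172), and every S-AlgLung library was above every AlgLung library. It was the called gene among 13 of sterol uptake, transport and storage. ABCG1, a sterol exporter and target of the sterol-sensing LXR receptors (chromosome 21, 42199689 to 42297244), was at 9.24, 11.0 and 11.8 CPM in AlgLung and 18.3, 18.0 and 20.2 CPM in S-AlgLung. It rose 1.77-fold (edgeR log2 fold change 0.82, SE 0.22, adjusted p = 0.0197), also with no overlap. Of the 6 LXR receptors and targets it was the called gene, and 5 of the 6 values were above 0, with a median of 0.14. MYLIP, an LXR-induced ubiquitin ligase, was at 0.53 (edgeR adjusted p = 0.3221), LPCAT3, a phospholipid-remodelling enzyme, at 0.18, and the receptors NR1H2 and NR1H3 at 0.07 and 0.11. ABCA1, the other main LXR-driven exporter, was at -0.16 (SE 0.30) with 2.24 to 4.06 CPM in the 6 libraries.

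FABP5, a fatty acid carrier of the cytosol, was the called gene among 13 of fatty acid uptake and oxidation. It was at 6.78, 4.90 and 5.01 CPM in AlgLung and 2.27, 3.25 and 3.38 CPM in S-AlgLung, and it fell by 0.90 on the log2 scale (SE 0.27, edgeR adjusted p = 0.04917). At an adjusted p under 0.05 TMEM97 was called in 13 of 16 alternatives, and its call was lost when AlgLung replicate 1, 2 or 3 was left out, at log2 fold changes of 0.81, 0.97 and 0.89. ABCG1 was called in 11 of 16. Its call was lost when AlgLung replicate 1, 2 or 3 (0.68, 0.84 and 0.84) or S-AlgLung replicate 1 (0.84) was removed and with scaling by total counts (0.73). FABP5, close to the threshold, was called in 8 of 16. It was lost without the same libraries (-0.78, -0.99, -1.03 and -0.75), with total counts (-1.01) and with limma-voom, a minimum of 1 CPM or scaling without the most abundant genes (each -0.90). None of the 3 genes passed an adjusted p under 0.01 in the edgeR fit of all 6 libraries. Over the 16 other alternatives the adjusted p ran from 0.0001379 to 0.2295 for TMEM97, from 0.003108 to 0.1794 for ABCG1 and from 0.004394 to 0.2341 for FABP5.

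No gene was called in the other 5 groups. Of 8 genes for SREBP cleavage and sterol-regulated degradation, RNF139, a ubiquitin ligase, had the smallest p, at 0.30 (edgeR adjusted p = 0.6173), and the site-1 protease gene MBTPS1 was at 0.14. Of 11 genes of the non-sterol isoprenoid branch it was PGGT1B, a subunit of a geranylgeranyl transferase, at -0.31 (edgeR adjusted p = 0.6082). Of 4 tested genes of citrate and NADPH supply it was MID1IP1, an activator of acetyl-CoA carboxylase, at 0.24 (edgeR adjusted p = 0.7177). Of 10 other elongation and desaturation genes it was HACD1, a dehydratase of the elongation cycle, at -0.51 (edgeR adjusted p = 0.3278). Of 14 genes of glycerolipid synthesis and lipid droplets it was PCYT2, which acts in phosphatidylethanolamine synthesis and was lowest in S-AlgLung replicate 3, at -0.59 (edgeR adjusted p = 0.2456). PCYT2 was called with the GC trend removed (-0.71, edgeR adjusted p = 0.03448) and with the replicate block (-0.67, edgeR adjusted p = 0.0395). Without S-AlgLung replicate 3, 6 of the 79 genes were called: TMEM97, ABCG1 and FABP5, and in addition GRAMD1A, a sterol transporter, and DGAT1, a triglyceride synthase, as higher (0.79 and 0.81) and HACD1 as lower (-0.79). In that fit 8.28% of all tested genes were called.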

How the data were processed

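The authors deposited raw read counts for each gene. STAR 2.7.3a, featureCounts and the build GRCh38 are named per the submitters' processing notes. Annotation and strandedness of the counting are not given in the sources. The deposited gene length was taken as exon length in bases for levels per kilobase. AlgLung replicate 1 had 2 columns, which differed in 0 genes and were counted as 1 sample. Of the 62703 IDs, 62625 matched the gene name table. The 38 genes and all lists were chosen with earlier results of these data known.

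Genes were kept with filterByExpr (minimum count 10), scaled with TMM and tested over all 6 libraries by edgeR 4.0.16 (quasi-likelihood F test, no block, R 4.3.3). Each SE is the absolute log2 fold change over the root of F, and 95% intervals use that SE. CPM values are TMM-scaled, and a pseudocount of 0.1 CPM was used for ranges and deviations of single libraries. GC content came from GENCODE transcripts. Alternatives used DESeq2 1.42.0, limma 3.58.1, other scalings and filters, a replicate block, each library left out, an adjusted p under 0.01 and, added later, a GC offset per library (lowess span 0.3). The edgeR script was tested on simulated data. The total counts set the counting precision.

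Named with values in every library were called genes, those of the 38 with an unadjusted p under 0.05, SREBF1, SREBF2, INSIG1, HMGCS1, SQLE, FASN and SCD, and, in a branch with none of these, the gene with the smallest p (in other lists that gene by its fold change); ACAT2, LSS, ACACA and the other LXR genes were added after their values were seen.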

Additional observations from a re-analysis of the deposited data

How the results depend on the processing

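None of the 38 genes was called under another scaling, filter or tool, or at an adjusted p under 0.01. SCD5 was the 1 gene called with the replicate block, with the GC offset per library and without S-AlgLung replicate 3, so the count called, over the 38 genes and in elongation and desaturation, was 1 in these fits and 0 to 1 over the fits that leave out a library. Replicate numbers could not be taken to pair libraries: same-numbered libraries correlated at 0.072, 0.285 and 0.041 (Pearson's r of deviations from the group means over 18544 genes), and AlgLung replicate 1 correlated best with S-AlgLung replicate 3 (0.208). With the replicate block 800 genes were called higher and 500 lower, SCD5 was at -0.72 (edgeR adjusted p = 0.03476) and, of the related genes, PCYT2 was called too, as it was with the GC offset. Over all genes the count of higher calls was 333 with total counts, 323 at an adjusted p under 0.01, and 289 to 891 with a library left out, and that of lower calls 217 at 0.01 and 244 to 662 with a library left out. Total counts moved the median of all genes by -0.1 on the log2 scale.

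Of the 38 genes, 24 changed sign in some alternative, none with a main log2 fold change beyond 0.16 in size, and 9 did so outside the fits that leave out a library. With total counts INSIG1 was at -0.023, INSIG2 at -0.043, FDFT1 at -0.028, SC5D at -0.087 and ELOVL1 at -0.079. SC5D was at -0.0047 with DESeq2 size factors and with DESeq2, at -0.015 with upper-quartile factors and at -0.0019 without a filter, and ELOVL1 at -0.013 with upper-quartile factors. ACSL4 was at 0.020 with limma-voom and at 0.015 with the replicate block. With the GC offset CYP51A1 was at 0.0020, MSMO1 at 0.030, HSD17B7 at 0.042, ELOVL1 at -0.059 and ACSL4 at 0.19. With each library left out the log2 fold changes that crossed 0 ranged as follows: SREBF1 -0.27 to 0.010, SCAP -0.35 to 0.048, INSIG1 -0.099 to 0.20, INSIG2 -0.11 to 0.20, PMVK -0.28 to 0.22, MVD -0.36 to 0.10, FDFT1 -0.10 to 0.19, SQLE -0.030 to 0.23, TM7SF2 -0.23 to 0.21, NSDHL -0.40 to 0.066, HSD17B7 -0.26 to 0.21, SC5D -0.11 to 0.14, DHCR7 -0.23 to 0.14, ACLY -0.15 to 0.027, ACSS2 -0.044 to 0.32, ACACB -0.44 to 0.0059, SCD -0.18 to 0.0029, ELOVL1 -0.27 to 0.20, FADS1 -0.068 to 0.026, FADS2 -0.29 to 0.063, ACSL1 -0.099 to 0.047, ACSL4 -0.18 to 0.088. The branch median from acetyl units to palmitate was 0.045 with total counts and -0.043 to 0.27 with a library left out, and that from squalene to cholesterol -0.19 to -0.031. The cause of these shifts was not tested. The 38 genes had a median of 11701 counts over the 6 libraries, and with 3 libraries per hydrogel their SEs were 0.21 to 0.28.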
